A study of Mus musculus with 6 samples.

Results

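A set of 10 genes for ligands and coreceptors, through which myeloid, dendritic and B cells tell T cells to respond or to stop, was followed across the leukocytes of mouse breast tumours. They are Cd274 (PD-L1), Pdcd1lg2 (PD-L2), Cd80, Cd86, Cd40, Pvr (CD155), Nectin2 (CD112), Lgals9 (galectin-9), Vsir (VISTA) and Icosl (ICOS ligand). The 10 genes were taken by symbol from the 32285 genes of the count tables, and each symbol matched 1 gene. BrM libraries 1 to 3 hold leukocytes of tumours that had grown in the brain, and MFP libraries 1 to 3 hold leukocytes of tumours in the mammary fat pad. All 6 came from female C57BL/6J mice aged 10 to 12 weeks, with no drug treatment on the labels, after orthotopic injection of a single breast cancer line derived from brain metastases. An injected line models growth at each site and not the spread to it, and nothing in the labels ties a library to an animal of its own, so the p-values cover the variation among these libraries, part of which may be technical. Live nucleated CD45+ cells had been sorted, CD45 being a protein of nearly all leukocytes, and were profiled with 10x Genomics 3′ version 3 chemistry, which counts each captured transcript once by its unique molecular identifier (UMI).

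A T cell that recognises its antigen needs a costimulatory signal, classically CD28 bound by CD80 or CD86 on an antigen-presenting cell, and CTLA-4 competes for the same ligands as a brake. PD-L1 and PD-L2 bind PD-1 and dampen T cells, and interferon-gamma is a well known inducer of PD-L1. CD40 is the receptor through which helper T cells license dendritic cells, ICOS ligand sustains helper and regulatory T cells, Pvr and Nectin2 are shared by the activating receptor CD226 and the inhibitory receptors TIGIT, CD96 and PVRIG, and galectin-9 and VISTA are mostly described as inhibitory.

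The tables held 49518 cell barcodes and between 50692794 and 70944735 UMIs a library. After filters on depth and mitochondrial RNA and removal of likely doublets, 43608 cells remained in 28 clusters, of which 27 were used as classes or parts of classes, with 43431 cells. Of these, cluster 03 (3168 cells, led by haemoglobin genes) stayed unnamed, and the others were named from marker genes. The last cluster, 177 epithelial or tumour-like cells, was left out. The libraries fell into 2 kinds that cut across the sites. BrM 1, MFP 1 and MFP 2 had the lower UMI totals and were mostly lymphocytes, with 136, 146 and 61 monocyte-, macrophage- or microglia-like cells, whereas BrM 2, BrM 3 and MFP 3 had the higher totals and 2726, 2680 and 2805 such cells. A class is described only in libraries with at least 20 of its cells, and values are therefore also given within each kind where a difference between sites is described. Levels are UMIs of the gene per 1000000 UMIs of the class in a library (CPM), which compare classes and libraries for 1 gene and not 1 gene with another. Shares of cells with a UMI were computed after every cell had been thinned to 2000 UMIs, which left out 2309 shallower cells, and they are called detection rates here. The classes were made from the same cells, so an order of classes is a description with no test.

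**Figure D1:**
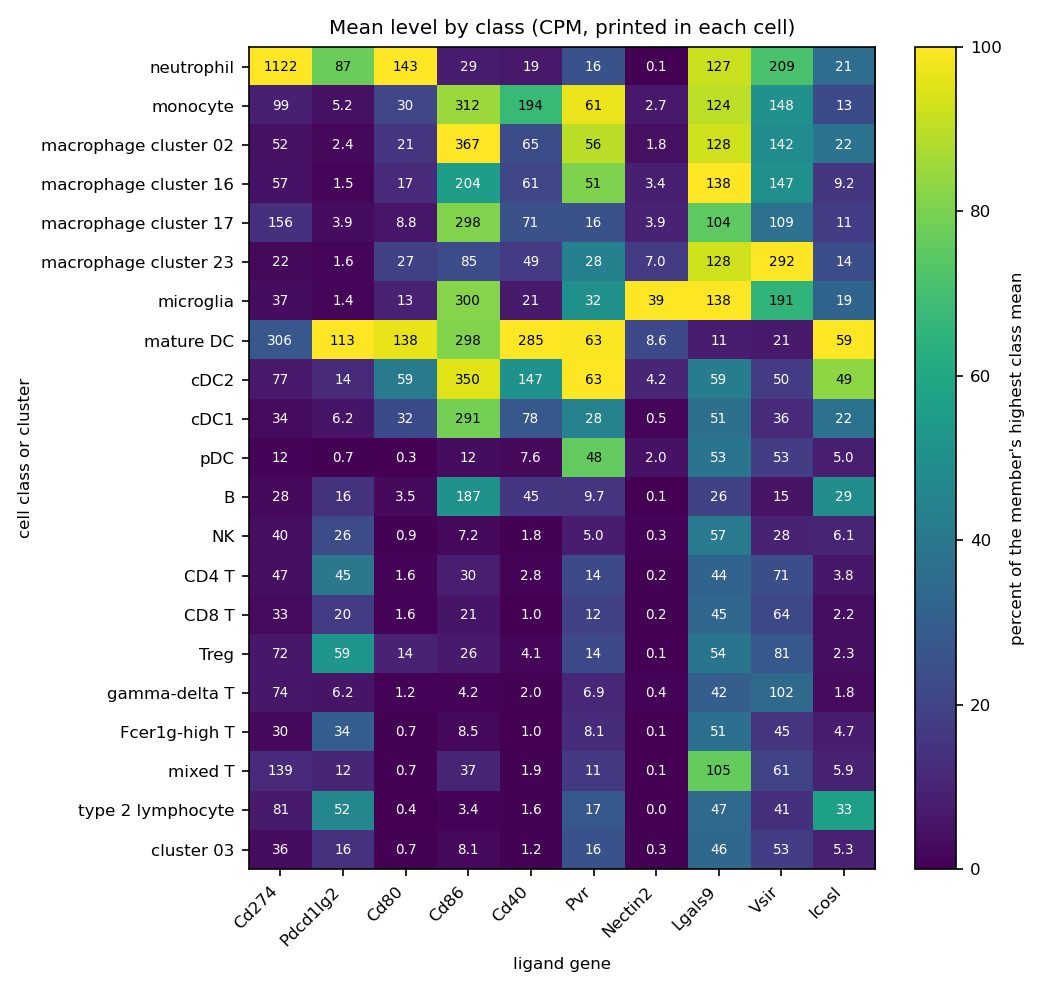
Mean level of the 10 genes (columns) in the classes of leukocytes (rows), in CPM of UMI sums and averaged over all libraries with at least 20 cells of the class. The number in each cell is that mean, and the colour is its percentage of the gene's highest class mean. Neutrophil-like and mature DC-like cells led for Cd274, Pdcd1lg2 and Cd80, mature DC-like cells for Cd40 and Icosl, microglia-like cells for Nectin2, and mature DC-like cells were lowest for Lgals9.

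The PD-1 ligands Cd274 and Pdcd1lg2 lie side by side on chromosome 19 of GRCm38, at bases 29367455 to 29388095 and 29410919 to 29471161 of the plus strand, with 22823 bases between them. Their RefSeq promoters (GRCm38.p6, 250 bases before to 50 bases after the start of transcription) are shown because the pair share a locus and a receptor while their levels across classes differ. Capitals mark matches, on either strand, to 3 motifs: the interferon-gamma-activated site TTCNNNGAA, the core of the interferon-stimulated response element (GAAA, 2 bases of any kind, then GAAA), and the kappa-B site; in the windows printed here no match overlapped another.
Cd274, chr19:29367188-29367487, plus strand: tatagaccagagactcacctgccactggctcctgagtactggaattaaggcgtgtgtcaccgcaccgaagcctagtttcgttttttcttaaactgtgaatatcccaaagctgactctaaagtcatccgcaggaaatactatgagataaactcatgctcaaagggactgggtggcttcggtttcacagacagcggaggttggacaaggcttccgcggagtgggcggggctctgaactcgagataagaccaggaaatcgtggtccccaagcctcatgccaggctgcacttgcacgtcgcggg
Pdcd1lg2, chr19:29410669-29410968, plus strand: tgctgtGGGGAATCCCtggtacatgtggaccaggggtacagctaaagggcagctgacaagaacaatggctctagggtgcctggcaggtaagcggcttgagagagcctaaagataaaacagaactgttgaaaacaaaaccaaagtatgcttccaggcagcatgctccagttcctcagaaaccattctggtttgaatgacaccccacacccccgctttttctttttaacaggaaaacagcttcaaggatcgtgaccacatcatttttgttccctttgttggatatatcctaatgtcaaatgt
The Cd274 window holds none of the 3 motifs, and the Pdcd1lg2 window holds 1 kappa-B match, which begins 244 bases before the start. Of 32851 such windows of 27025 genes, 8.3% hold TTCNNNGAA, 3.44% the response element core and 4.51% a kappa-B match, so a match describes the letters and no more.

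Cd274 was highest in neutrophil-like cells, at 659 and 1340 CPM in BrM 2 and 3, against 1366 CPM in MFP 3. Detection rates there were 47.3 and 75.6% in BrM 2 and 3, against 65.3% in MFP 3, and in unthinned cells 41.9 and 62.5% in BrM 2 and 3, against 70.8% in MFP 3. BrM 2 was the low library, and the other two lay close together across the sites. These cells were shallow, with a median of 0.324 times the UMIs of their library's cells, and thinning kept 74 of 301 in BrM 2 and 45 of 339 in BrM 3, against 1020 of 1233 in MFP 3. Mature DC-like cells, the migratory dendritic cells marked by Fscn1 and Ccr7, came next without overlap, at 253 and 309 CPM in BrM 2 and 3, against 356 CPM in MFP 3, and their detection rates were 40.9 and 39.6% in BrM 2 and 3, against 40.9% in MFP 3. The classes that followed by mean overlapped: macrophage-like cluster 17, led by Mmp12 and Arg1, which reached the mature DC-like values in BrM 2 and BrM 3, averaged 156 ± 119 CPM (SD, n = 6), T cells led by Ifit genes averaged 139 ± 21.7 CPM (SD, n = 6), and monocyte-like cells averaged 98.6 ± 40.2 CPM (SD, n = 6). Plasmacytoid DC-like cells were lowest, at 9.65 and 14.8 CPM in BrM 2 and 3, against 12.9 CPM in MFP 3, with detection rates of 3.55 and 2.68% in BrM 2 and 3, against 7.14% in MFP 3, and these rates are taken here as the background of free RNA in the droplets.

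Which cells supplied the Cd274 transcripts followed the composition of the library. T-like cells held 65.3% of the Cd274 UMIs of all classified cells in BrM 1, against 54.0% in MFP 1 and 58.5% in MFP 2. Monocyte-, macrophage- and microglia-like cells held 48.2% in BrM 2 and 48.7% in BrM 3, whereas neutrophil-like cells held 60.1% in MFP 3.

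Pdcd1lg2 had a different order, with mature DC-like cells first at 104 and 94.7 CPM in BrM 2 and 3, against 139 CPM in MFP 3. Neutrophil-like cells overlapped them, at 50.1 and 59 CPM in BrM 2 and 3, against 153 CPM in MFP 3, and MFP 3 stood far above both brain libraries there. Treg-like cells, type 2 lymphocyte-like cells (led by Il1rl1, Il5 and Il13) and CD4 T-like cells followed by mean. They had 52.5, 46.2 and 39.8% of the mature DC-like mean, although PD-L2 is known mainly from dendritic cells and macrophages. Treg-like cells had 50.4, 61.4 and 38.2 CPM in BrM 1, 2 and 3, against 61.6, 81 and 62.3 CPM in MFP 1, 2 and 3, and CD4 T-like cells averaged 44.8 ± 12.4 CPM over all 6 libraries (SD). Their rates of detection were well above those of microglia-like cells (0.4% in BrM 2 and 0% in BrM 3) and plasmacytoid DC-like cells, at 12.3, 12 and 11.7% in BrM 1, 2 and 3, against 9.18, 15.7 and 9.84% in MFP 1, 2 and 3 in Treg-like cells. Both transcripts were found in the same thinned neutrophil-like cell in 9.46% of 74 cells in BrM 2 and 13.3% of 45 cells in BrM 3, against 15.5% of 1020 cells in MFP 3, while the products of the separate rates were 5.75%, 10.1% and 12.0% in that order.

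**Figure D2:**
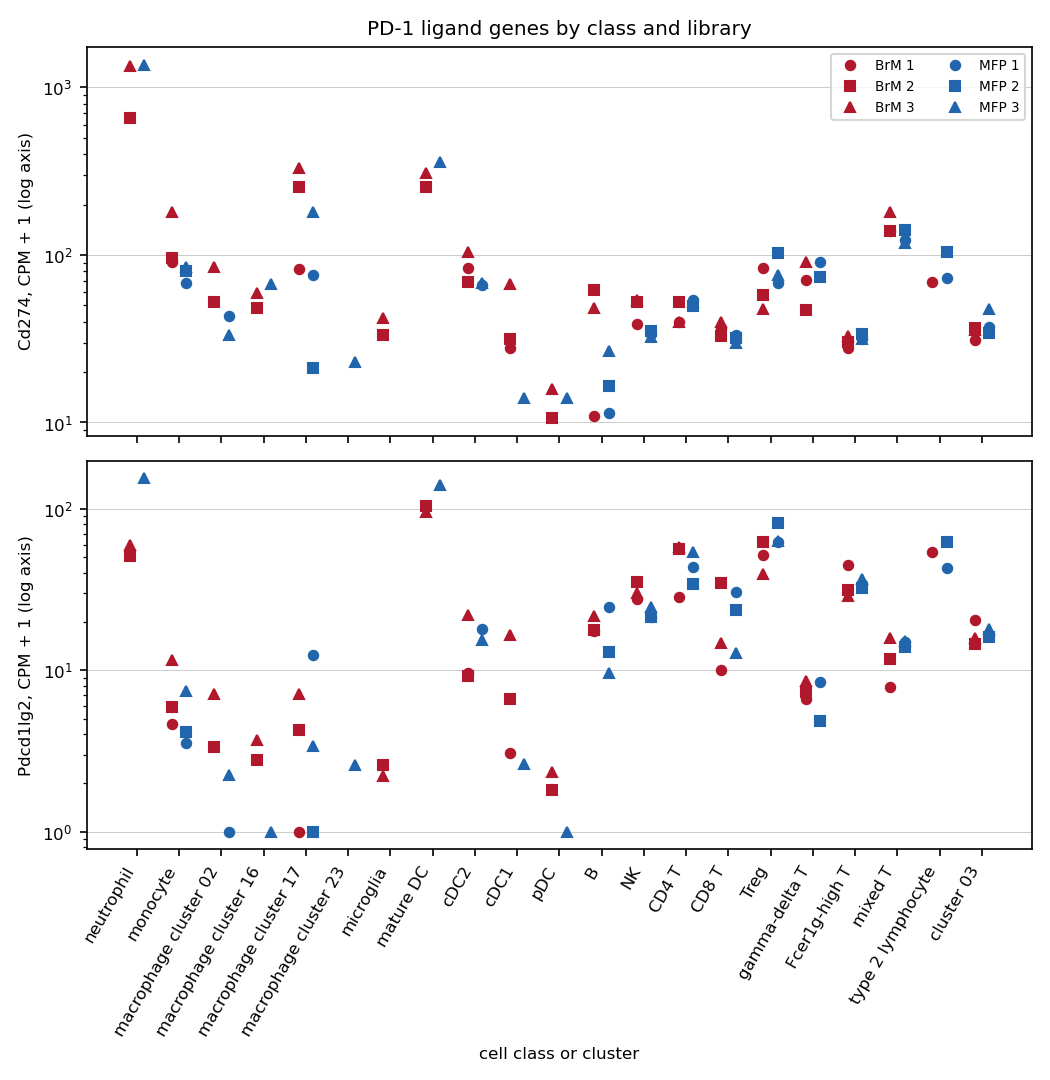
Level of Cd274 and Pdcd1lg2 in each library by class, as CPM + 1 of UMI sums on a log axis, with BrM to the left of MFP. Each point is 1 library with at least 20 cells of the class. Cd274 is highest in neutrophil-like cells in all 3 libraries shown, and Pdcd1lg2 in mature DC-like cells of BrM 2 and BrM 3 and in neutrophil-like cells of MFP 3.

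Cd80 and Cd86, the shared ligands of CD28 and CTLA-4, differed in where they were found. Cd80 was concentrated in neutrophil-like cells, at 165 and 138 CPM in BrM 2 and 3, against 127 CPM in MFP 3, and in mature DC-like cells, at 144 and 128 CPM in BrM 2 and 3, against 143 CPM in MFP 3. Those 2 classes overlapped, and all later classes were below them, beginning with cDC2-like cells at 58.7, 70.1 and 67.3 CPM in BrM 1, 2 and 3, against 21.1 and 77.3 CPM in MFP 1 and 3. MFP 1 was the low library among the cDC2-like sums, on 10 UMIs. Among T-like classes Treg-like cells had Cd80 at 20.2, 13.6 and 8.36 CPM in BrM 1, 2 and 3, against 14.3, 16 and 13 CPM in MFP 1, 2 and 3, where conventional CD4 T-like cells had 1.39 to 3.91 CPM in BrM libraries and 0.685 to 1.21 CPM in MFP libraries.

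Cd86 was spread over most of the myeloid and dendritic classes, and 6 classes overlapped at the top. Exceptions were plasmacytoid DC-like cells, at 3.3% of the highest class mean, and macrophage-like cluster 23, at 23.2%. Macrophage-like cluster 02, led by H2-M2, Vcam1 and Dnase1l3, averaged 367 ± 55 CPM (SD, n = 4), cDC2-like cells 349.7 ± 104 CPM (SD, n = 5) and monocyte-like cells 312 ± 57.6 CPM (SD, n = 6). Neutrophil-like cells were low, at 50.1 and 14.3 CPM in BrM 2 and 3, against 23.3 CPM in MFP 3, so the class that led for Cd80 had little Cd86. Icosl, whose receptor ICOS marks helper and regulatory T cells, was highest in mature DC-like cells, at 43 and 50.8 CPM in BrM 2 and 3, against 81.9 CPM in MFP 3. It was next highest in cDC2-like cells, at 59.7, 27.6 and 25.3 CPM in BrM 1, 2 and 3, against 82.3 and 48.1 CPM in MFP 1 and 3. Type 2 lymphocyte-like cells followed by mean, at 56.7% of the mature DC-like mean. B-like cells had Icosl at 45.1, 5.55 and 11.9 CPM in BrM 1, 2 and 3, against 35.3, 40.6 and 34.3 CPM in MFP 1, 2 and 3, on 1 and 4 UMIs in BrM 2 and BrM 3. The mature DC-, cDC2- and B-like values overlapped.

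Cd40, the receptor for CD40 ligand on helper T cells, was led by mature DC-like cells with little spread, at 298 and 279.5 CPM in BrM 2 and 3, against 278 CPM in MFP 3. Monocyte-like cells followed without overlap, at a mean of 194 ± 44.7 CPM (SD, n = 6). B-like cells, which carry CD40 for help from T cells, had 39.1, 55.5 and 71.2 CPM in BrM 1, 2 and 3, against 32.7, 39.4 and 30 CPM in MFP 1, 2 and 3. T-like cells had 1.6 to 3.57 CPM in BrM libraries and 0.62 to 1.77 CPM in MFP libraries, and NK-like cells, taken as the class that should lack it, had 0.652 to 4.42 CPM and 0.929 to 1.05 CPM in the same order, both far below B-like cells.

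Of the nectin family, Pvr was widespread and Nectin2 narrow. Pvr averaged 63 ± 9.41 CPM in cDC2-like cells (SD, n = 5), 62.6 ± 13.6 CPM in mature DC-like cells (SD, n = 3) and 61.2 ± 9.54 CPM in monocyte-like cells (SD, n = 6), and these classes overlapped. NK-like cells, which carry receptors for Pvr, were lowest at 5.01 ± 1.16 CPM (SD, n = 6). Nectin2 was found mainly in microglia-like cells, the resident macrophages of the brain, at 44.6 and 34.4 CPM in BrM 2 and BrM 3, on 254 and 142 UMIs. Its rates of detection there were 7.05 and 7.49%. The next class without overlap was mature DC-like cells at 6.49 and 3.08 CPM in BrM 2 and 3, against 16.4 CPM in MFP 3, on 4 to 8 UMIs each. No MFP library held 20 microglia-like cells, so Nectin2 of that class has no value in the fat pad.

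Lgals9, the gene of a secreted lectin, lies on the minus strand of chromosome 11 at bases 78962974 to 78984946 of GRCm38. Its promoter is shown because it was the only one of the 7 members with a RefSeq window to hold more than 1 match to the core of the interferon-stimulated response element, and the genes most like Lgals9 across classes included an interferon-induced one. The matches, in capitals and read on the opposite strand, begin 55 bases before and 15 bases after the start.
Lgals9, chr11:78984875-78985174, minus strand: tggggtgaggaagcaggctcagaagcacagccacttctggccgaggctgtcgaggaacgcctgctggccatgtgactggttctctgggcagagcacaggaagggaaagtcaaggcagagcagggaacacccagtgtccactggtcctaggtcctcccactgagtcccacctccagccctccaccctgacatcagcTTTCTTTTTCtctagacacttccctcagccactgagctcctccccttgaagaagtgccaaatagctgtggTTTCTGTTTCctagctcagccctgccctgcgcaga
No RefSeq window was used for Cd86, Cd40 and Pvr.

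Lgals9 averaged over 100 CPM in macrophage-like clusters 02, 16, 17 and 23, in microglia-, neutrophil- and monocyte-like cells and in T cells led by Ifit genes. Monocyte-like cells had 123, 123 and 132 CPM in BrM 1, 2 and 3, against 99.6, 132 and 137 CPM in MFP 1, 2 and 3. The sites overlapped in that class. Mature DC-like cells, highest for Cd40 and Icosl, were lowest for Lgals9 without overlap, at 10.5 and 10 CPM in BrM 2 and 3, against 12.3 CPM in MFP 3, on 13, 13 and 3 UMIs. T cells led by Ifit genes averaged more than other T-like classes, with 119, 83.7 and 78.8 CPM in BrM 1, 2 and 3, against 121, 112 and 116 CPM in MFP 1, 2 and 3. Vsir, an inhibitory B7 relative best known from myeloid and naive T cells, was highest in macrophage-like cluster 23, which only MFP 3 held in number, at 292 CPM. Neutrophil-like cells had 215 and 180.4 CPM in BrM 2 and 3, against 231 CPM in MFP 3, and microglia-like cells 204 and 179 CPM in BrM 2 and BrM 3. Mature DC-like cells had 13.8 and 21.6 CPM in BrM 2 and 3, against 28.7 CPM in MFP 3, so they were near the bottom of the order for both Lgals9 and Vsir.

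Across 96 sums of class and library from 21 classes, the genes whose CPM followed each member most closely by Spearman's rho were taken from genes of at least 10 CPM. Cd274 was followed by Gbp2 (rho = 0.790), Isg15 (0.752) and Herc6 (0.720), all induced by interferons. Lgals9 had Pgd first at 0.751, and Ifit2, another interferon-induced gene, among its 3 at 0.719. Cd40 had the closest partner, Ifi30, a gene of antigen processing, at 0.916. Cd86 was followed by Ctss at 0.827 and Cd83 at 0.815, which act in antigen presentation. Cd80 had Ube2f at 0.770 and the costimulatory ligand Tnfsf9 among its 3 at 0.755. Pdcd1lg2 had Gnai3 at 0.785, Pvr had Pip4k2a at 0.753, Vsir had Pkm at 0.810 and Icosl had Baz2b at 0.789, while Nectin2 reached only 0.649, with Anxa3. The sums of 1 library share its depth and free RNA, so these values describe the classes and carry no test.

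The comparison of BrM with MFP asks how the same class of leukocyte differs between an intracranial and an extracranial tumour. It was made per class over libraries by the quasi-likelihood test of edgeR on UMI sums, with p-values adjusted by the Benjamini-Hochberg method over all genes of the class, and each log2 fold change divides BrM by MFP. Of 11 classes tested, 10 had no member past an adjusted p of 0.05. The exception was macrophage-like cluster 02, where 4 of 10 members rose and 1 fell in BrM, against 5.82% of the 11537 genes tested there, 3.18% higher and 2.64% lower. These 5 calls rest on BrM 2, BrM 3, MFP 3 and the 21 cells of MFP 1, and DESeq2 called 5 genes in the cluster where edgeR called 671. DESeq2 gave an adjusted p to 2 of the 10 members only, because its independent filtering sets aside genes of low counts. Run without that filtering, an alternative chosen after seeing the data, it called 0 members, and 2 had an unadjusted p under 0.05. The folds were of like size, such as 1.15 (SE 0.42) for Cd274 (DESeq2 adjusted p = 0.716) and 1.0 (SE 0.37) for Cd40 (DESeq2 adjusted p = 0.791).

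In cluster 02 Cd274 rose, at 51.2 and 83.2 CPM in BrM 2 and 3, against 42.2 and 32.1 CPM in MFP 1 and 3. Both brain libraries were above both fat-pad libraries, and MFP 1 rests on 8 UMIs. The means were 67.2 ± 22.6 CPM in BrM libraries (SD, n = 2) and 37.2 ± 7.15 CPM in MFP libraries (SD, n = 2), and the log2 fold change was 1.19 (SE 0.20), with an edgeR adjusted p of 0.00171. Detection rates were 8.09 and 15.4% in BrM 2 and 3, against 5.0 and 4.91% in MFP 1 and 3. The plasmacytoid DC-like rates taken above as background lay below those of BrM 2 and BrM 3, but above that of MFP 3, where they rest on 2 of 28 cells. The fat-pad level was thus not told apart from background by rates. By CPM, cluster 02 was above plasmacytoid DC-like cells in all 3 libraries. Cd40 rose as well, at 70.2 and 87.8 CPM in BrM 2 and 3, against 63.3 and 39.8 CPM in MFP 1 and 3, on 12 UMIs in MFP 1. The sites did not overlap, as for 4 of 10 members on the higher side and 3 on the lower side, where 15.4% and 35.6% of all genes in the cluster did so. The log2 fold change of Cd40 was 1.09 (SE 0.17), with an edgeR adjusted p of 0.000671. The fits of Cd274 and Cd40 exceed the ratio of the means. MFP 3 had 1126 cells of the cluster and MFP 1 had 21. The part of these numbers and of the scaling between libraries was not tested.

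Cd80 rose less, at 22.7 and 29.1 CPM in BrM 2 and 3, against 15.8 and 17.6 CPM in MFP 1 and 3, on 3 UMIs in MFP 1. Its log2 fold change was 0.71 (SE 0.18), with an edgeR adjusted p of 0.0236. Pdcd1lg2 was called higher too, at 2.36 and 6.17 CPM in BrM 2 and 3, against 0 and 1.24 CPM in MFP 1 and 3, with a log2 fold change of 1.92 (SE 0.52) and an edgeR adjusted p of 0.036. The call is on 36 and 76 UMIs in BrM 2 and BrM 3, against 0 and 23 UMIs in MFP 1 and MFP 3. Its detection rates were 0.412 and 0.884% in BrM 2 and 3, against 0 and 0.268% in MFP 1 and 3, on 5 and 9 cells in BrM, against 0 and 3 cells in MFP. Plasmacytoid DC-like cells had it in 0 of 169 and 1 of 112 cells in BrM 2 and BrM 3, against 0 of 28 cells in MFP 3, too few to set a background beside rates of this size. Icosl was the member that fell, at 15.2 and 9.98 CPM in BrM 2 and 3, against 36.9 and 26.8 CPM in MFP 1 and 3, on 7 UMIs in MFP 1. Both brain libraries were below both fat-pad libraries, and the log2 fold change was -0.95 (SE 0.21), with an edgeR adjusted p of 0.012. Cd86, Pvr, Nectin2, Lgals9 and Vsir did not pass in the cluster, with Cd86 at 346 and 328 CPM in BrM 2 and 3, against 449 and 345 CPM in MFP 1 and 3 and Vsir at 117 and 118 CPM in BrM 2 and 3, against 158 and 173 CPM in MFP 1 and 3.

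Within the higher-total libraries MFP 3 alone stands for the fat pad, and its spread is assumed to equal that of the brain libraries. The log2 fold changes there were 1.2 for Cd274, 1.13 for Cd40, 0.7 for Cd80, 1.9 for Pdcd1lg2 and -0.93 for Icosl. Without BrM 3 or without MFP 3 no member was called, without BrM 2 only Cd274, and without MFP 1 only Cd274 and Cd40. Genes of the CD40 pathway in the cluster rose with Cd40 in 2 of 10 cases. Traf1, an adaptor induced by CD40 signalling, averaged 86.1 ± 4.5 CPM over BrM 2 and 3, against 49.4 ± 4.7 CPM over MFP 1 and 3 (SD). Traf3, an adaptor that binds the CD40 tail, averaged 47.3 ± 8.7 CPM over BrM 2 and 3, against 29.0 ± 3.7 CPM over MFP 1 and 3 (SD). Their log2 fold changes were 1.05 (SE 0.15) and 0.74 (SE 0.16), with edgeR adjusted p of 0.000436 and 0.0104. Of 8 measured receptors of the members 1 passed, Icos, a T cell gene, at 2.05 ± 0.31 CPM over BrM 2 and 3, against 0.268 ± 0.380 CPM over MFP 1 and 3 (SD; log2 fold change 2.07, SE 0.60, edgeR adjusted p = 0.047). By edgeR 0 of 10 measured other ligands and 0 of 9 genes of interferon-gamma signalling and PD-L1 stability passed, with an unadjusted p under 0.05 for 3 and 2 of them, and DESeq2 called 0 in all 4 lists, with or without its independent filtering. Among the interferon-gamma genes Socs1, a feedback inhibitor of the pathway, had an edgeR adjusted p of 0.0584.

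**Figure D3:**
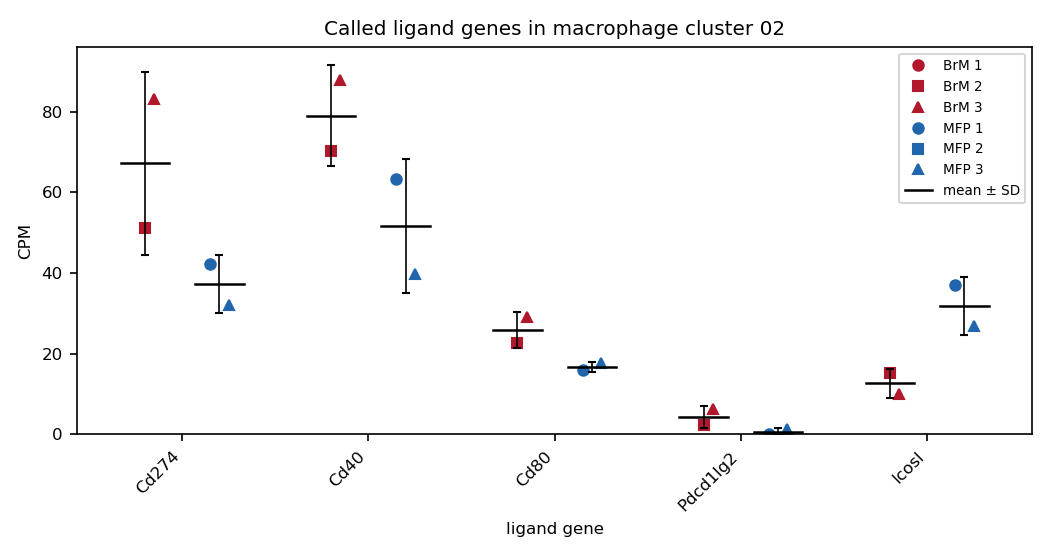
Levels in CPM of Cd274, Cd40, Cd80, Pdcd1lg2 and Icosl in macrophage-like cluster 02, with BrM libraries 2 and 3 to the left of MFP libraries 1 and 3. Points are libraries, and bars are the mean ± SD (n = 2 each). The first 4 genes lie higher in both brain libraries and Icosl lies lower, with MFP 1 resting on 21 cells.

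In monocyte-like cells edgeR called 0 of 8 tested members, against 0.0723% of 8298 genes (0.0241% higher and 0.0482% lower). DESeq2 called 0 of the 7 to which it gave an adjusted p. By edgeR 965 genes, 4 of them members, had an unadjusted p under 0.05. Cd86 had 358, 362 and 364 CPM in BrM 1, 2 and 3, against 299, 258 and 233 CPM in MFP 1, 2 and 3. The brain libraries lay within a narrow band above all 3 fat-pad libraries. Its means were 362 ± 3.35 CPM in BrM libraries (SD, n = 3) and 263 ± 33 CPM in MFP libraries (SD, n = 3), and the log2 fold change was 0.54 (SE 0.15), with an edgeR adjusted p of 0.215. Detection rates gave the same picture, at 57.7, 48.3 and 44.5% in BrM 1, 2 and 3, against 26.5, 31.4 and 33% in MFP 1, 2 and 3, with no overlap and the smallest exact permutation p that 3 against 3 allows, 0.1 (two-sided). Here and in the other classes the lower-total fit has BrM 1 alone for the brain and the higher-total fit MFP 3 alone for the fat pad, and the lone library is assumed to vary like the others. Within the lower-total libraries the log2 fold change was 0.38 (SE 0.21) and within the higher-total ones 0.76 (SE 0.13).

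Vsir lay the other way, at 152, 102 and 97 CPM in BrM 1, 2 and 3, against 180.2, 173 and 180.3 CPM in MFP 1, 2 and 3. The fat-pad libraries were nearly equal and the brain libraries all lower, and so were the detection rates, at 25.6, 18.5 and 15.4% in BrM 1, 2 and 3, against 30.1, 31.4 and 31.9% in MFP 1, 2 and 3. The log2 fold change was -0.56 (SE 0.19), with an edgeR adjusted p of 0.296. It was -0.18 (SE 0.24) within the lower-total libraries and -0.74 (SE 0.13) within the higher-total ones. Without BrM 1 Vsir was called, at -0.75 (SE 0.15) and an edgeR adjusted p of 0.0432, in a fit that called 112 of 9385 genes.

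Cd274 in monocyte-like cells had 89.4, 94.8 and 178 CPM in BrM 1, 2 and 3, against 66.8, 78.7 and 83.7 CPM in MFP 1, 2 and 3. The brain libraries were higher without overlap, but BrM 3 alone was far above. The log2 fold change of 0.76 (SE 0.26), with an edgeR adjusted p of 0.309, was 0.34 without BrM 3. Cd40 had 249, 195 and 226 CPM in BrM 1, 2 and 3, against 179, 195 and 118 CPM in MFP 1, 2 and 3, with a log2 fold change of 0.56 (SE 0.21) and an edgeR adjusted p of 0.338. MFP 3 was the low library for Cd40, and MFP 2 and BrM 2 lay side by side. Within the higher-total libraries Cd40 had 0.95 (SE 0.14), and within the lower-total ones 0.47 (SE 0.23). Of the 8 members 3 had CPM higher in every brain than in every fat-pad library, against 4.97% of the genes, and 1 had it lower, against 11.6%. The macrophage-like marker list (13 genes), which monocytes that mature into macrophages begin to express, summed to 6105, 14340 and 11390 CPM in BrM 1, 2 and 3, against 5886, 5060 and 11920 CPM in MFP 1, 2 and 3, so it followed the kind of library, and its part in these values was not tested.

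Other genes of the pathway in monocyte-like cells gave 0 calls by edgeR in all 4 lists, with an unadjusted p under 0.05 for 1 of 2 measured receptors of the members, 2 of 9 other ligands, 2 of 8 genes of interferon-gamma signalling and PD-L1 stability and 2 of 10 genes of CD40 signalling. DESeq2 called 0 in each list, with or without its independent filtering. The lowest p was that of Traf1, with 224.8 ± 31.3 CPM over the 3 BrM libraries, against 141.5 ± 25.6 CPM over the 3 MFP libraries (SD), and a log2 fold change of 0.73 (edgeR adjusted p = 0.158). The members' median log2 fold change was 0.17, beside -0.01 over all genes tested in the class.

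In the dendritic class, cDC1-, cDC2-, mature and plasmacytoid DC-like cells together, MFP 2 was left out with 16 cells, and edgeR called 0 of 10 members, against 0% of 10157 genes. DESeq2 called 23 genes and no member, and 807 genes, 4 of them members, had an edgeR p under 0.05. Cd86 had 288, 326 and 378 CPM in BrM 1, 2 and 3, against 203 and 238 CPM in MFP 1 and 3, higher in all brain libraries, with a log2 fold change of 0.62 (SE 0.17) and an edgeR adjusted p of 0.528. The other 3 were lower in all brain libraries. Icosl had 39.5, 25.1 and 26.7 CPM in BrM 1, 2 and 3, against 58.7 and 44.1 CPM in MFP 1 and 3, a log2 fold change of -0.72 (SE 0.24) and an edgeR adjusted p of 0.561. Vsir had 51.1, 32.2 and 31 CPM in BrM 1, 2 and 3, against 61.5 and 56.6 CPM in MFP 1 and 3, a log2 fold change of -0.63 (SE 0.24) and an edgeR adjusted p of 0.594. Nectin2 had 2.33, 2.52 and 2.42 CPM in BrM 1, 2 and 3, against 4.29 and 5.38 CPM in MFP 1 and 3, on 3 to 25 UMIs a library, and a log2 fold change of -1.0 (SE 0.39) with an edgeR adjusted p of 0.612. Without BrM 1, Vsir was called in the dendritic class, at -0.82 (SE 0.15) and an edgeR adjusted p of 0.0456. That fit called 147 of 10605 genes.

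Within the higher-total libraries MFP 3 was the lone fat-pad library of the dendritic class. The log2 fold changes there were 0.62 for Cd86 and 0.46 for Cd274. They were -0.78 for Vsir, -0.71 for Icosl, -0.44 for Pvr and -1.05 for Nectin2. The lower-total libraries gave no such fit, as they held BrM 1 and MFP 1 only. The makeup of the dendritic class differed between libraries too, since mature DC-like cells, which are low for Vsir, numbered 145 of 969 in BrM 2 and 188 of 897 in BrM 3, against 25 of 244 in MFP 3, and were missing from BrM 1 and MFP 1. Its part was not tested. Of 10 members 1 had CPM higher in every brain than in every fat-pad library, against 11.3% of genes, and 3 had it lower, against 15.3%.

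In cDC2-like cells, the dendritic cells that prime CD4 T cells, Cd86 had 358, 413 and 482 CPM in BrM 1, 2 and 3, against 226 and 269.9 CPM in MFP 1 and 3. No library of one site reached those of the other, and detection rates were 41.7, 53.1 and 55.9% in BrM 1, 2 and 3, against 30.9 and 38.5% in MFP 1 and 3. The means were 418 ± 62 CPM in BrM libraries (SD, n = 3) and 248 ± 31.1 CPM in MFP libraries (SD, n = 2), and the log2 fold change was 0.79 (SE 0.20), with an edgeR adjusted p of 0.553. edgeR called 0 of 10 members, against 0% of 9094 genes, while 610 genes, 1 of them a member, had an unadjusted p under 0.05. With DESeq2 the class had 18 genes called and no member. Within the higher-total libraries, with MFP 3 alone for the fat pad, the log2 fold change was 0.79 (SE 0.17) for Cd86 and -0.79 (SE 0.21) for Icosl.

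**Figure D4:**
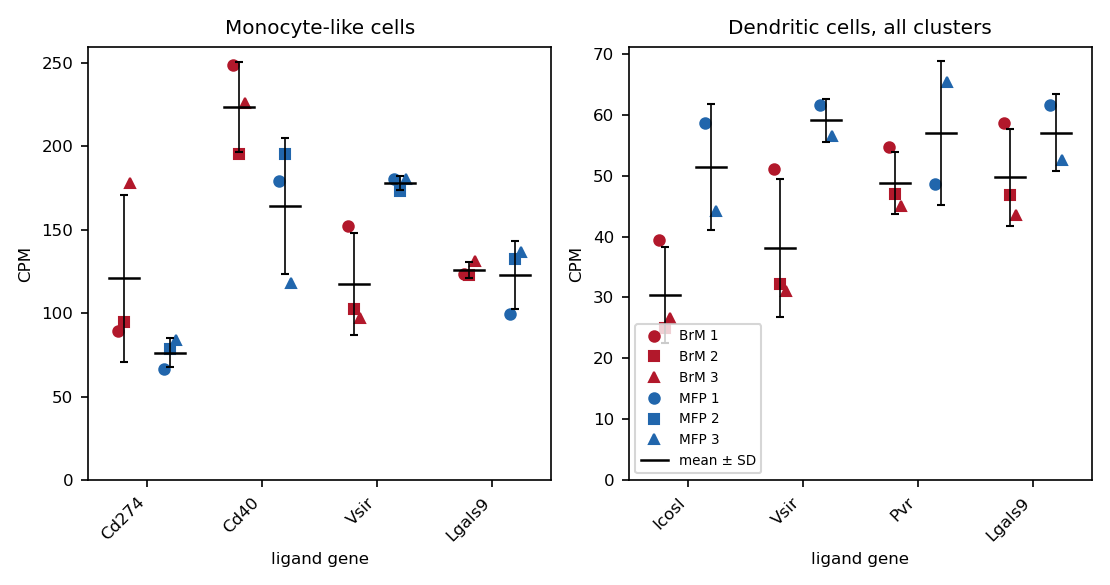
Levels in CPM of Cd274, Cd40, Vsir and Lgals9 in monocyte-like cells (left) and of Icosl, Vsir, Pvr and Lgals9 in dendritic cells (right), with BrM to the left of MFP. Points are libraries with at least 20 cells of the class, and bars are the mean ± SD. Vsir lies lower in every brain library in both classes, and Lgals9 overlaps in both.

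Cd86 was also higher in the brain libraries of 2 lymphoid classes. B-like cells, which raise CD86 on activation, had 171, 316 and 273 CPM in BrM 1, 2 and 3, against 119, 129 and 116 CPM in MFP 1, 2 and 3, on 57 UMIs in BrM 2 and 27 in MFP 3. All brain libraries were higher, and BrM 1 was nearest to the fat pad. The means were 254 ± 74.6 CPM in BrM libraries (SD, n = 3) and 121 ± 6.9 CPM in MFP libraries (SD, n = 3), and the log2 fold change was 1.0 (SE 0.25), with an edgeR adjusted p of 0.441. edgeR called 0 of 5 tested members, against 0% of 5173 genes, while 333 genes, 1 of them a member, had an unadjusted p under 0.05. With DESeq2 the class had 2 genes called and no member. Detection rates were 25.3, 44.9 and 42.9% in BrM 1, 2 and 3, against 21.2, 20.7 and 25.4% in MFP 1, 2 and 3, and they overlapped, BrM 1 lying below MFP 3. The log2 fold change was 0.44 (SE 0.17) within the lower-total libraries and 1.4 (SE 0.41) within the higher-total ones. Without BrM 1, Cd86 (1.26) and Cd274 (1.81) were called in B-like cells, at an edgeR adjusted p of 0.00224 and 0.0364. That fit called 232 of 4296 genes.

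Macrophage RNA in B-like cells also differed between libraries. The 13 macrophage-like markers summed to 1001, 2449 and 3717 CPM in BrM 1, 2 and 3, with a UMI for 9, 10 and 10 of them, against 550.5, 512 and 1363 CPM in MFP 1, 2 and 3, with a UMI for 6, 5 and 10. Cd86 had 4.37, 1.06 and 1.77 UMIs for each UMI of C1qa, C1qb and C1qc in BrM, against 15.2, 21.6 and 0.5 in MFP, where monocyte-, macrophage- and microglia-like cells had 0.0607, 0.0243 and 0.0262 in BrM, against 0.0669, 0.0574 and 0.0243 in MFP. The ratio in B-like cells was above that of the myeloid cells in all 6 libraries. That of NK-like cells, the background class, was above it too, at 0.319, 0.0479 and 0.0642 in BrM, against 0.677, 0.765 and 0.0681 in MFP. The ratio therefore cannot tell Cd86 of the class from RNA carried over. Detection in B-like cells was far above that of NK-like cells, 0.56, 1.37 and 3.11% in BrM 1, 2 and 3, against 0.391, 0.40 and 1.66% in MFP 1, 2 and 3. The part of macrophage RNA in the difference between sites was not tested.

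CD8 T-like cells had Cd86 at 24.3, 28.9 and 30.2 CPM in BrM 1, 2 and 3, against 15.4, 17.5 and 12.1 CPM in MFP 1, 2 and 3. The brain libraries were higher without overlap, with means of 27.8 ± 3.08 CPM in BrM libraries (SD, n = 3) and 15 ± 2.75 CPM in MFP libraries (SD, n = 3). The log2 fold change was 0.9 (SE 0.18), with an edgeR adjusted p of 0.929. Detection rates were 3.97, 6.43 and 6.99% in BrM 1, 2 and 3, against 3.14, 3.33 and 3.21% in MFP 1, 2 and 3. edgeR called 0 of 7 tested members, against 0% of 10276 genes, while 476 genes, 1 of them a member, had an unadjusted p under 0.05. With DESeq2 the class had 2 genes called and no member. NK-like cells, as background, had Cd86 at 3.02, 9.99 and 14.2 CPM in BrM 1, 2 and 3, against 2.43, 2.01 and 11.3 CPM in MFP 1, 2 and 3, so CD8 T-like cells were above them in each library, by least in MFP 3. The Cd86 log2 fold change was 0.62 (SE 0.18) within the lower-total libraries and 1.33 (SE 0.24) within the higher-total ones, without a call. Pdcd1lg2 of CD8 T-like cells had 9.02, 33.5 and 13.7 CPM in BrM 1, 2 and 3, against 29.7, 22.8 and 11.7 CPM in MFP 1, 2 and 3, which overlapped, BrM 1 and BrM 2 being the extremes. Its log2 fold change was -1.46 (SE 0.25) in the lower-total libraries, with BrM 1 alone for the brain, and 1.08 (SE 0.58) in the higher-total ones. The makeup moved with it, since cluster 18, whose leading genes include Pdcd1 and Rgs16, held 12 of 539, 394 of 977 and 83 of 808 CD8 T-like cells in BrM 1, 2 and 3, against 190 of 779, 206 of 1152 and 39 of 290 in MFP 1, 2 and 3. Its part was not tested. The macrophage-like markers summed to 11.8, 485 and 515 CPM in BrM 1, 2 and 3, against 14.0, 12.6 and 348 CPM in MFP 1, 2 and 3, and so followed the kind of library. Their part was not tested.

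**Figure D5:**
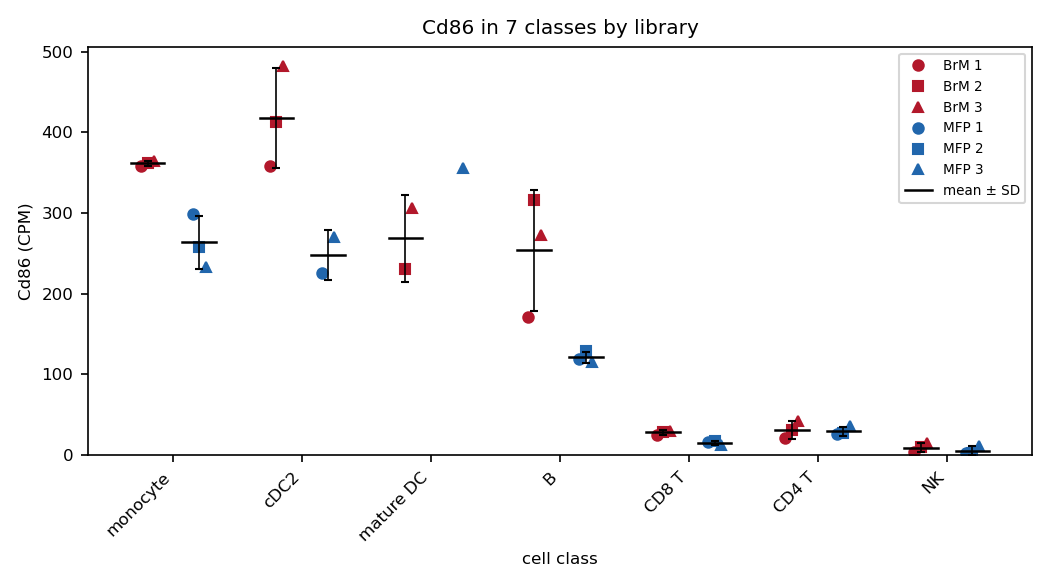
Level of Cd86 in CPM in 7 classes, monocyte-like, cDC2-like, mature DC-like, B-like, CD8 T-like, CD4 T-like and NK-like, with BrM to the left of MFP in each. Points are libraries with at least 20 cells of the class, and bars are the mean ± SD. All BrM libraries lie above all MFP libraries in monocyte-like, cDC2-like, B-like and CD8 T-like cells, MFP 3 lies above both BrM libraries in mature DC-like cells, and CD4 T-like and NK-like cells overlap.

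All T-like cells as 1 class had 0 of 9 members called by edgeR, against 0% of 12327 genes, while 1179 genes, 3 of them members, had an unadjusted p under 0.05. With DESeq2 the class had 46 genes called and no member. Cd86 had 18.9, 26.9 and 29.4 CPM in BrM 1, 2 and 3, against 14.9, 19.5 and 15.8 CPM in MFP 1, 2 and 3, which overlapped, with a log2 fold change of 0.62 (SE 0.21) and an edgeR adjusted p of 0.504. Within kinds it was 0.11 (SE 0.19) in the lower-total and 0.92 (SE 0.15) in the higher-total libraries. Cd80 and Cd40 were the other two. Cd80 had 3.07, 3.81 and 2.57 CPM in BrM 1, 2 and 3, against 1.86, 1.21 and 1.77 CPM in MFP 1, 2 and 3, with a log2 fold change of 1.01 (SE 0.27) and an edgeR adjusted p of 0.504, beside 0.407 to 2.45 CPM of NK-like cells in BrM and 0.0774 to 1.48 CPM in MFP. Cd40 of T-like cells, at the low levels given above, had a log2 fold change of 1.37 (SE 0.51) and an edgeR adjusted p of 0.504. CD4 T-like cells had 0 of 8 members called by edgeR, against 0% of 10090 genes, while 1925 genes, 1 of them a member, had an unadjusted p under 0.05. With DESeq2 the class had 250 genes called and none of the 5 members with an adjusted p. The member was Cd40, at 2.89, 3.72 and 5.03 CPM in BrM 1, 2 and 3, against 1.41, 0.856 and 2.81 CPM in MFP 1, 2 and 3, beside 0.652 to 4.42 CPM in NK-like cells of BrM and 0.929 to 1.05 CPM in those of MFP, and on 8 to 24 UMIs in BrM and 4 to 7 UMIs in MFP. It had a log2 fold change of 1.53 (SE 0.48) and an edgeR adjusted p of 0.167. With CD4 T-like cells chosen by a marker gate on each cell instead of by cluster, the Cd40 fold change was only 0.255 (SE 0.572). Without BrM 1, Cd40 (1.78) and Pdcd1lg2 (0.56) were called in CD4 T-like cells, at an edgeR adjusted p of 0.0454 and 0.0353. That fit called 1737 of 10163 genes, so calls were common in it. The partner Cd40lg, the signal that CD4 T cells give through CD40, averaged 38.8 ± 5.2 CPM over the 3 BrM libraries, against 74.0 ± 14.6 CPM over the 3 MFP libraries (SD), with a log2 fold change of -0.81 (edgeR adjusted p = 0.142). DESeq2 called 1 of 10 genes of CD40 signalling and 1 of 8 receptors with an adjusted p in this class. Cluster 04, with Cd40lg among its leading genes, held 1110 of 1329, 232 of 398 and 360 of 698 CD4 T-like cells in BrM 1, 2 and 3. In MFP 1, 2 and 3 it held 426 of 849, 775 of 1227 and 111 of 235. Its part was not tested.

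Treg-like cells had 0 of 7 members called by edgeR, against 0.0893% of 7840 genes. DESeq2 called 160 genes and none of the 4 members to which it gave an adjusted p. Of the 7840 genes 1482 had an unadjusted p under 0.05 by edgeR, and only 1 of them was a member. It was Lgals9, at 54.3, 42.6 and 32.3 CPM in BrM 1, 2 and 3, against 58.8, 65 and 68 CPM in MFP 1, 2 and 3, where all brain libraries were lower, with a log2 fold change of -0.46 (SE 0.21) and an edgeR adjusted p of 0.264. NK-like cells had 0 of 7 called by edgeR, against 0.00941% of 10626 genes. DESeq2 called 101 genes and none of the 4 members with an adjusted p. Of the 10626 genes 1177 had an unadjusted p under 0.05 by edgeR, 2 of them members, both PD-1 ligands. Cd274 had 37.6, 51.1 and 53 CPM in BrM 1, 2 and 3, against 32.8, 34.3 and 31.6 CPM in MFP 1, 2 and 3, higher in all brain libraries, with a log2 fold change of 0.5 (SE 0.15) and an edgeR adjusted p of 0.33. Pdcd1lg2 had 26.6, 34.1 and 28.9 CPM in BrM 1, 2 and 3, against 20.3, 20.3 and 23.7 CPM in MFP 1, 2 and 3, again without overlap, with a log2 fold change of 0.51 (SE 0.14) and an edgeR adjusted p of 0.298. Within kinds Cd274 had 0.16 (SE 0.10) and 0.82 (SE 0.25), and Pdcd1lg2 0.39 (SE 0.12) and 0.5 (SE 0.29), in the lower-total and higher-total libraries. In these fits BrM 1 stood alone for the brain in the lower-total libraries, and MFP 3 alone for the fat pad in the higher-total ones. Without BrM 1 both genes were called, at an edgeR adjusted p of 0.0106 for Cd274 and 0.0301 for Pdcd1lg2. That fit called 601 of 8815 genes. Detection rates of Cd274 were 7.06, 8.24 and 9.53% in BrM 1, 2 and 3, against 5.86, 6.24 and 5.8% in MFP 1, 2 and 3, without overlap. In unthinned NK-like cells 0 of 7 members were without overlap. The Cd274 detection rate of MFP 3 lies below the plasmacytoid DC-like rate of the same library, on 2 of 28 cells, which is taken as background. The makeup of the class differed too, since cluster 01, led by Cma1 and Prf1, held 854 of 2397, 32 of 378 and 107 of 629 NK-like cells in BrM 1, 2 and 3, against 1433 of 3441, 927 of 2591 and 134 of 390 in MFP 1, 2 and 3. Its part was not tested. The macrophage-like markers in NK-like cells summed to 19.4, 721 and 672 CPM in BrM 1, 2 and 3, against 9.84, 7.98 and 409.6 CPM in MFP 1, 2 and 3, and the 9 neutrophil-like markers to 4.4, 43.5 and 24.5 CPM, against 5.64, 6.43 and 65.1 CPM. The part of either in these values was not tested.

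Macrophage-like cluster 17 had 0 of 6 members called by edgeR, against 0% of 5399 genes, while 31 genes, none of them a member, had an unadjusted p under 0.05 and DESeq2 called 0. Its Cd274 had 80.9, 253 and 331 CPM in BrM 1, 2 and 3, against 74.6, 20.2 and 179 CPM in MFP 1, 2 and 3, which overlapped and rested on 2 UMIs in MFP 2. Neutrophil-, mature DC-, microglia-, cDC1- and plasmacytoid DC-like cells and clusters 16 and 23 had at most 1 library of 20 cells in MFP, so no test was made and their values stand above.

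Over the classes with 3 libraries a site, detection rates of 7 pairs of member and class did not overlap: Cd86 and Vsir in monocyte-like cells, Cd86 in CD8 T-like cells, Cd274 and Pdcd1lg2 in NK-like cells, and Cd40 in T-like and CD4 T-like cells. Across all genes 4.78% were higher and 7.57% lower in this way in monocyte-like cells, and the shares higher were 4.5% in CD8 T-like, 6.82% in NK-like, 5.84% in T-like and 6.75% in CD4 T-like cells. Each of the 7 pairs had the smallest exact permutation p, 0.1, and 0.849 after adjustment over 87 pairs. In unthinned cells, members without overlap numbered 0 of 7 in NK-like, 0 of 9 in T-like and 1 of 8 in CD4 T-like cells. They numbered 3 of 8 in monocyte-like, 2 of 7 in CD8 T-like, 1 of 5 in B-like and 0 of 7 in Treg-like cells. By CPM, the members whose sites did not overlap numbered 1 of 9 in T-like cells (Cd80, higher; background 5.9% of genes higher and 10.8% lower), 1 of 8 in CD4 T-like cells (Cd40, higher; 7.87% and 18.3%), 1 of 7 in CD8 T-like cells (Cd86, higher; 3.44% and 7.7%) and 1 of 5 in B-like cells (Cd86, higher; 7.23% and 7.67%). They numbered 2 of 7 in Treg-like cells, both lower (10.9% higher and 14.5% lower), 2 of 7 in NK-like cells, both higher (8.1% and 11.2%), and 3 of 10 in cDC2-like cells, 2 of them higher (10.6% and 14.5%). Whether the effect of site differed between classes was tested as an interaction in edgeR with the library as a block. No member passed in dendritic against monocyte-like cells (0.00858% of 11659 genes called), in B-like against T-like cells (0%) or in monocyte-like against T-like cells (0.00858%). Only Vsir in the last of these had an unadjusted p under 0.05, with a difference of -0.52 (SE 0.23, edgeR adjusted p = 0.853). Other ligands outside the set gave 0 of 8 calls by edgeR in the dendritic class, with 2 at an unadjusted p under 0.05 and 1 called by DESeq2. Among them Tnfsf9, the ligand of 4-1BB, averaged 73.5 ± 20.9 CPM over the 3 BrM libraries, against 226 ± 44.7 CPM over MFP 1 and 3 (SD), with a log2 fold change of -1.59 (edgeR adjusted p = 0.323).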

How the data were processed

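Leukocytes of 3 BrM and 3 MFP tumour libraries were measured by 10x Genomics single-cell RNA sequencing. The deposited tables hold raw UMI counts per gene and barcode, made by the authors with Cell Ranger 4.0 on mm10 per the submitters' processing notes. Here cells with at least 500 UMIs, 200 genes and at most 10% mitochondrial UMIs were kept. The 7% with the highest Scrublet score were removed, in scanpy 1.11.5, a rule set after the scores were seen. Leiden clusters (leidenalg 0.10.2, resolution 1.5, members left out of the variable genes) were named from marker lists. Macrophage-like cells were tested by cluster number and the myeloid class was not tested, contrary to the plan, because leading genes of clusters 02 and 23 included markers of other classes. UMIs were summed per library and class of at least 20 cells and tested with edgeR 4.0.16 (R 4.3.3; TMM, filterByExpr, Benjamini-Hochberg). DESeq2 1.42.0 was an alternative, also without its independent filtering. The tests were checked on simulated data. The members and gene lists were chosen with earlier results of these data known. The text names all 10 members and, of 4 related lists, at most 4 genes a class, those of lowest p. Fold changes are printed for members that were called or had p under 0.05. Coordinates are GRCm38. An antisense gene of Cd274 (AC119228.1) had 0 UMIs, against 22712 of Cd274, and one of Nectin2 (Gm20512) had 4, against 777. Between 10 and 39 barcodes were shared by any pair of libraries.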

Additional observations from a re-analysis of the deposited data

How the results depend on the processing

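No fold change changed sign among the 23 with an unadjusted p under 0.05, over 331 alternative values, while 38 of the other 64 did, in 101 of 947 values. The alternatives reuse the libraries by which the 23 were chosen, so their stable sign is no separate support. Sizes could change much, as for Cd40 of CD4 T-like cells, at 1.53 in the main fit and 0.255 with the marker gate on each cell. Members called did move. Without the filter on low counts, 1 member was called in each of B-like, cDC2-like and monocyte-like cells. Genes called there were 63 of 13867, 171 of 15629 and 336 of 16329. With the kind of library as a term, 2 were called in monocyte-like cells, 2 in macrophage-like cluster 02 and 1 in cDC2-like cells. Genes called there were 305 of 8298, 658 of 11537 and 129 of 9094. The fits within each kind of library rest on 1 library at 1 site, so members called in them are not counted here. In cluster 02, all of whose alternatives were chosen after seeing the data, DESeq2 gave no adjusted p to the 5 called members and so no count. Without its independent filtering it called 0, as in the other classes with or without it. With doublets kept, edgeR called 3 members there and 635 of 11870 genes. Leaving out 1 library at a time gave 0 to 2 members in CD4 T-like, NK-like and B-like cells and in cluster 02, and 0 to 1 in monocyte-like and dendritic cells. Outside cluster 02 these calls came without BrM 1, with the numbers of genes called given above. The cause of these changes was not tested. Whether replicate numbers pair the libraries was not settled. Correlations of deviations were 0.389, -0.526 and 0.501 for replicates 1, 2 and 3 in T-like cells. For replicates 1 and 3 they were 0.424 and 0.329 in dendritic cells, and 0.452 and 0.289 in cDC2-like cells. A replicate block called 0 members in each class where it could be fitted, which cluster 02 was not. Genes called under the block were 68 in monocyte-like cells, against 6 without it, 11 against 1 in NK-like, 8 against 0 in B-like, 8 against 0 in dendritic, 16 against 0 in cDC2-like and 1 against 0 in CD4 T-like cells. DESeq2 called 160 genes in Treg-like cells, against 7 by edgeR, 101 against 1 in NK-like and 62 against 6 in monocyte-like cells, and without its independent filtering 85, 66 and 54 in those classes. Without the filter 444 genes were called in CD4 T-like, 479 in Treg-like, 190 in NK-like, 63 in B-like, 336 in monocyte-like, 73 in dendritic and 171 in cDC2-like cells and 1092 in cluster 02. Depth limits Nectin2 in all classes but microglia-like cells, and in monocyte-like cells of MFP 2 Cd80, Icosl and Pdcd1lg2, on 4, 3 and 1 UMIs.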
